A study of Rattus norvegicus with 69 samples.

Results

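Gene expression in whole blood was compared between rats that had inhaled printer-emitted particles (PEPs) and rats that had breathed filtered air, both sampled on day 13 of the exposure. The members of the comparison are the 10 arrays whose titles give day 13, 5 named PEP_D13 and 5 named Air_D13, out of 69 arrays in 14 groups in the whole series. The animals of both groups were male Sprague-Dawley rats, described as 9 weeks old, and each was kept alone in its chamber for 5 hours a day. PEP_D13 rats received the particles and gases of laser printer B1 over the whole body, whereas Air_D13 rats received air cleaned by a high efficiency filter. No other allele, drug or agent is given for either group, and no day 13 rat is named as a carrier of a telemetry transmitter. RNA was measured on Affymetrix Rat Gene ST arrays, and every level below is a log2 intensity, on which a difference of 1 is a doubling. Each rat gave 1 array. Per the labels the exposure was run in more than 1 year, and they do not say which array belongs to which run, so the part of the run in any difference was not tested.

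Blood RNA comes from a mixture of leukocytes, reticulocytes and platelets. A leukocyte that is activated to grow makes more ribosomes in its nucleolus, processes more pre-mRNA in its spliceosomes and translates more of the genome of its mitochondria, and genes for these machines are often expressed together. Cytotoxic cells, platelets and basophils carry lysosome-related granules, whose formation and release need small Rab GTPases and calcium-sensing proteins with C2 domains. Inhaled particles act first on airway epithelium and alveolar macrophages, and monocytes are the blood cells from which lung macrophages can be replenished.

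The 10 arrays differed in quality. The weight that the linear model gave to an array, which is low where an array departs from its group across all genes, was 0.246 for Air_D13 replicate 1 and 0.634 for PEP_D13 replicate 1, and lay between 0.955 and 1.58 for the other 8 arrays. Over all 69 arrays the weights ran from 0.229 to 1.63, and 4 were below 0.5. The lower quartile of intensities, which is high where weak probes carry more background, was 1.537 ± 0.136 in filtered air and 1.463 ± 0.0618 with PEPs (SD, n = 5 each), with an exact permutation p of 0.325 (two-sided). Air_D13 replicate 1 had the highest value of the 10, 1.765. Cell markers of blood were present in both groups, with means of 11.66 and 11.80 for Pf4, 8.22 and 8.25 for S100a9 and 8.45 and 8.63 for Cd3e, in filtered air and PEPs respectively. The levels of different genes are not comparable on this scale. Because replicate 1 of each group stood apart, results are also given below without it where that changes them.

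On day 13, 2 transcripts fell with PEPs and none rose past the threshold. Both are genes of vesicle traffic, Rab38 and Doc2a. They were 2 of 34176 probe sets tested, or 0.00585% (limma, Benjamini-Hochberg adjusted p under 0.05), and 2 of 13586 genes with a single symbol, or 0.0147%. At an unadjusted p under 0.05 there were 2633 probe sets (7.70%), of which 1428 were higher with PEPs (4.18%) and 1205 lower (3.53%). By at least 1.5-fold, 1140 probe sets were higher (3.34%) and 884 lower (2.59%). Among the genes with a symbol 693 were higher (5.10%) and 441 lower (3.25%) at that limit, and 105 were higher (0.773%) and 88 lower (0.648%) by at least 1.5-fold. The 2 groups of 5 arrays did not overlap for 62 genes that were higher with PEPs (0.456%) and 72 that were lower (0.530%). In every other group of genes described below the members did not pass the adjusted threshold, so their values are given as measured differences with unadjusted p-values.

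Rab38 encodes a small GTPase that, with its close relative Rab32, directs cargo to melanosomes, platelet dense granules and the lamellar bodies of the lung, and rats that lack it have pale coats and a bleeding tendency. Its levels in filtered air were 3.77, 3.55, 3.86, 3.28 and 3.50 on replicates 1 to 5. With PEPs they were 2.46, 2.64, 2.61, 2.63 and 2.65. The lowest air array was above the highest PEPs array by more than the whole range of the PEPs group. The fitted difference was -0.97 ± 0.18 (SE), a 1.95-fold lower level, with an adjusted p of 0.0320 in limma. Of the 12 groups without telemetry, Air_D13 had the highest mean of Rab38, 3.59, and PEP_D13 the lowest, 2.60, and the other 10 group means lay from 2.85 to 3.29. Thus the controls of day 13 stood above the controls of other days, 2.98 over 25 arrays, as well as the exposed rats standing below the exposed rats of other days, 3.08 over 26 arrays. The exposure difference on the other 5 days averaged 0.10 ± 0.08, and the difference between day 13 and those days was -1.07, with an adjusted p of 0.0398. That call was lost with trend and robust moderation (adjusted p = 0.0735), with the replicate block (0.0704) and without any single array of day 13 other than Air_D13 replicate 4 (0.0536 to 0.229), while the difference stayed between -1.15 and -0.96. Rab38 was the only probe set of 34176, 0.00293%, that passed this test of the difference, for which 2389 (6.99%) had an unadjusted p under 0.05.

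Doc2a encodes a cytosolic protein with 2 C2 domains that binds calcium and phospholipids and promotes vesicle fusion, known chiefly from neurons. Its levels were 2.70, 2.85, 2.34, 2.16 and 2.27 in filtered air. They were 1.77, 1.41, 1.90, 1.47 and 1.52 with PEPs. The groups again did not overlap, though the gap between them was narrower than for Rab38. The difference was -0.82 ± 0.16 (SE), a 1.77-fold lower level, with an adjusted p of 0.0320. The Air_D13 mean, 2.46, was above the other 5 air groups, which ran from 1.76 to 2.08, and the PEP_D13 mean, 1.61, was below the other 5 PEPs groups, which ran from 1.83 to 1.94. The exposure difference was -0.05 ± 0.07 over the other days, and that between day 13 and those days did not pass (adjusted p = 0.237). Doc2a is a dim probe set close to the lower quartile of the arrays. Both calls depended on the fit and on single arrays. With only the 10 arrays of day 13 in the model the adjusted p was 0.120 for Rab38 and 0.578 for Doc2a, and with the replicate block it was 0.0598 for both. Doc2a also failed to pass without array weights (0.0989), after cyclic loess (0.109) and without the telemetry groups (0.0709), where Rab38 passed. Without Air_D13 replicate 1 the adjusted p of both genes was 0.0512, and it ranged from 0.0203 to 0.161 for Rab38 and from 0.0203 to 0.285 for Doc2a when each array was left out in turn, while the differences stayed between -1.04 and -0.85 and between -0.92 and -0.69.

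**Figure D1:**
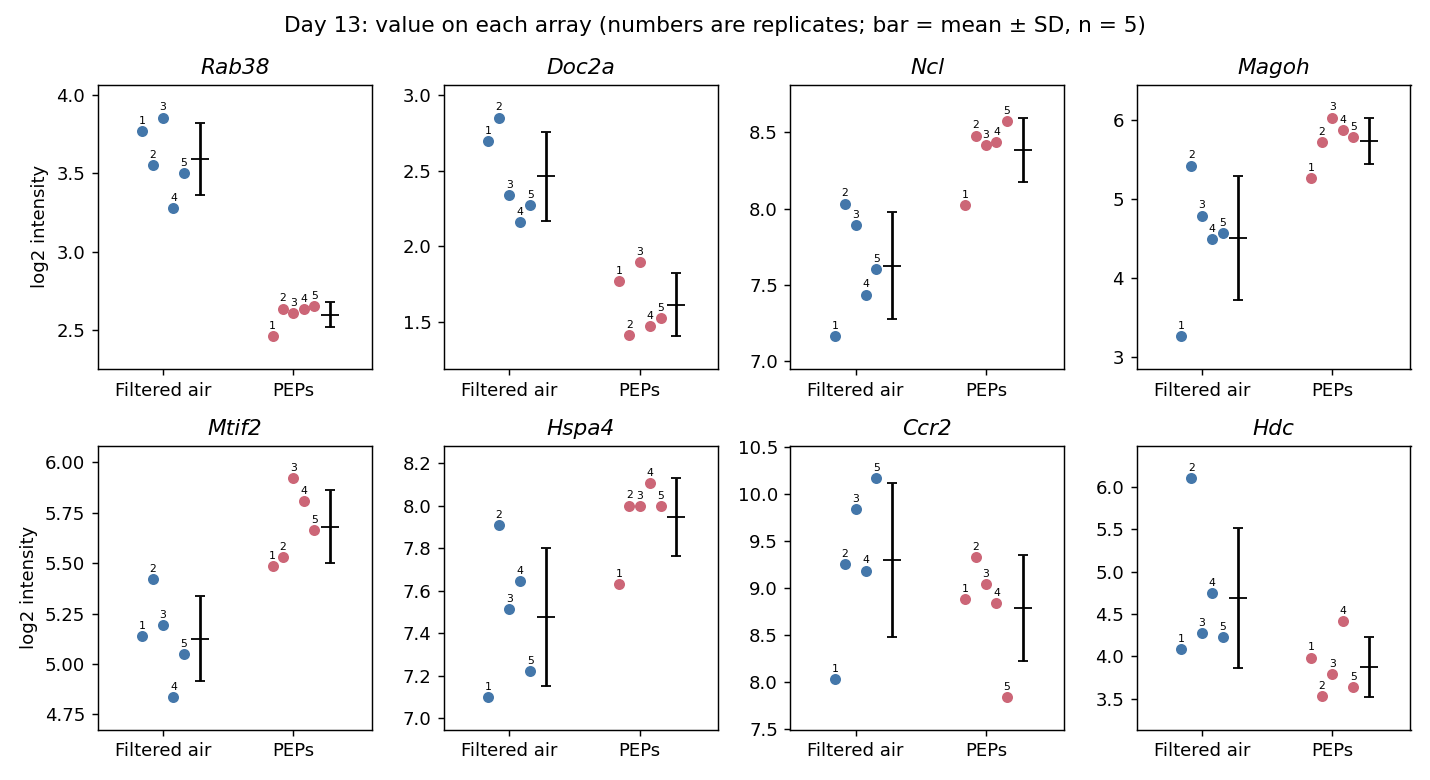
Log2 intensity of 8 genes on each of the 10 arrays of day 13, filtered air in blue and PEPs in red, with the replicate number above each point and the mean ± SD (n = 5) beside it. Rab38, Doc2a and Mtif2 separate the groups without overlap, whereas Air_D13 replicate 1 is the lowest array for Ncl, Magoh and Hspa4.

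Relatives and partners of both genes did not pass the threshold. Rab32 was 4.89, 5.51, 4.62, 5.08 and 5.57 in filtered air. It was 4.37, 4.99, 5.14, 5.24 and 5.08 with PEPs. These ranges lay across each other, with a difference of -0.12 ± 0.25 (unadjusted p = 0.622). Doc2g, a relative of Doc2a, differed by -0.23 ± 0.26 (unadjusted p = 0.379). Of 27 genes of granule trafficking measured, including the BLOC and HPS subunits that act with Rab38, 14 were higher and 13 lower, with a median of 0.0018 against -0.0013 over all genes. Besides the passing pair, 1 gene of that list was lower at an unadjusted p under 0.05, the BLOC subunit Bloc1s1 (-0.28 ± 0.14), and 1 was higher, Rab27a (0.27 ± 0.12), which tethers secretory granules to the cell cortex. With the pair, 11.1% of the list was lower and 3.7% higher at that limit, beside 3.25% and 5.10% of all genes. The list was chosen with earlier results of these data known, and it holds the pair that passed. Its share of lower genes is therefore no independent test.

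Genes of RNA processing formed the broadest pattern on day 13. This list and the nucleolar and mitochondrial lists below were chosen with earlier results of these data known. The paper's day 13 RNA binding term, from the same series, holds Magoh, Srek1, Htatsf1, Ncl, Esf1, Gar1, Trmt10c, Gfm1 and Tfam. The shares of these lists are therefore descriptions and not an independent test. Of 83 genes of the spliceosome and the exon junction complex, 75 were higher with PEPs and 8 lower, whereas 49.8% of all genes with a symbol were higher. At an unadjusted p under 0.05, 28 of the 83 (33.7%) were higher and 0 were lower in limma, beside 5.10% higher and 3.25% lower over all genes, and none passed the adjusted threshold. The median difference was 0.25 against -0.0013 over all genes. Magoh, a core subunit of the exon junction complex, was at 3.27, 5.42, 4.79, 4.49 and 4.57 in filtered air. It was at 5.26, 5.72, 6.03, 5.87 and 5.78 with PEPs. Only air replicate 2 reached into the range of the PEPs arrays, and air replicate 1 was more than 1 log2 unit under every other array. The fitted difference was 1.05 ± 0.29 (unadjusted p = 0.000720, adjusted p = 0.312). Next by p came Dhx15, the helicase that takes spent spliceosomes apart (0.43 ± 0.14), Srek1, a serine- and arginine-rich splicing regulator (0.61 ± 0.20), and Htatsf1, a U2 particle factor (0.63 ± 0.20). The list also held heterogeneous nuclear ribonucleoproteins among its higher members, such as Hnrnpa3 (0.62), Hnrnph3 (0.36) and Hnrnpd (0.35), and U2 subunits such as Sf3a3 (0.44) and Sf3b1 (0.29). Hnrnpa3 and Prpf6 separated the groups without overlap.

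The mean level of the 83 genes was 5.375, 6.071, 5.973, 5.851 and 5.821 in filtered air. It was 5.750, 6.140, 6.208, 6.212 and 6.190 with PEPs. Replicates 2 to 5 of the exposed rats lay above every air array, and PEP_D13 replicate 1 lay below 4 of the 5. In the nucleolar and mitochondrial lists below, too, replicates 2 to 5 of the exposed rats lay above every air array. Without Air_D13 replicate 1, 21 spliceosome genes were higher at that limit (background 4.06%), and without PEP_D13 replicate 1, 35 were (background 6.93%). The unweighted difference of list means was 0.28 with all arrays and 0.17 without Air_D13 replicate 1. For the nucleolar list these values were 0.31 and 0.17, and for the mitochondrial list 0.30 and 0.20.

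Nucleolar genes followed the spliceosome. Of 80 genes of the nucleolus and of ribosome biogenesis, 70 were higher and 10 lower, 21 (26.2%) higher and 0 lower at an unadjusted p under 0.05, with a median of 0.24. Ncl, nucleolin, which binds nascent ribosomal RNA and remodels its chromatin, had the smallest p of all genes that were higher on day 13. It was at 7.16, 8.03, 7.89, 7.44 and 7.60 in filtered air. It was at 8.02, 8.48, 8.41, 8.44 and 8.57 with PEPs. Apart from a single pair, air replicate 2 and PEPs replicate 1, every exposed array was above every air array. The difference was 0.70 ± 0.15, a 1.62-fold higher level (unadjusted p = 1.49e-05, adjusted p = 0.127, exact permutation p = 0.0159). Esf1, a pre-ribosome processing factor, was higher by 0.76 ± 0.21, Pes1, a subunit of the PeBoW complex of large-subunit maturation, by 0.52 ± 0.16, and Gnl3, nucleostemin, by 0.55 ± 0.18. Pwp1, Rsl24d1, Gar1 and Zcchc9 were higher by 0.69, 0.77, 0.74 and 0.89. Gar1, a subunit of the H/ACA particles that guide pseudouridylation, and Cebpz separated the groups without overlap. Without Air_D13 replicate 1 the count was 17 (21.2%, beside 4.06% of all genes), and without PEP_D13 replicate 1 it was 30 (37.5%, beside 6.93%).

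The regions upstream of Pes1, Gnl3, Mtif2 and Ncl are shown as examples of sequences searched for 2 motifs, because most members of their lists moved together. They are the 250 bases before the start site in the RefSeq promoter table of build GRCr8, 5′ to 3′ on the gene's strand. Capitals mark matches to the E-box CACGTG, to which Myc and Max bind, and to the ETS core CCGGAAG (both strands searched). Pes1 (chr14:83074096-83074345, plus strand) and Gnl3 (chr16:6219783-6220032, minus strand) each hold an E-box. Mtif2, of the mitochondrial list below (chr14:107466683-107466932, plus strand), holds the ETS core 3 times, and Ncl (chr9:94456084-94456333, minus strand) has neither.
Pes1, E-box in capitals: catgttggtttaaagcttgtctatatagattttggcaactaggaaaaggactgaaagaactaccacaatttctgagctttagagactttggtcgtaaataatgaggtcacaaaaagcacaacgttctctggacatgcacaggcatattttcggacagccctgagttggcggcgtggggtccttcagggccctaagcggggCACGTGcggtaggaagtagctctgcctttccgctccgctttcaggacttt
Gnl3, E-box in capitals: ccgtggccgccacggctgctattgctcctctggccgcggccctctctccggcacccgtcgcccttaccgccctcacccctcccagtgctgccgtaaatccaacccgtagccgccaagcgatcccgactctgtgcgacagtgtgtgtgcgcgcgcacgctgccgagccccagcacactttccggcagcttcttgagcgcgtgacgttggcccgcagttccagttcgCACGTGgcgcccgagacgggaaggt
Mtif2, ETS core in capitals: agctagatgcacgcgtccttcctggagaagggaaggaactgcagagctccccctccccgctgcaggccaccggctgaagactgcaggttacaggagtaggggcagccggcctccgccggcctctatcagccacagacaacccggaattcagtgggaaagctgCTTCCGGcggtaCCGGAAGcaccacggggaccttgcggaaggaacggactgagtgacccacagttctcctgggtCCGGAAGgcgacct
Ncl, no match: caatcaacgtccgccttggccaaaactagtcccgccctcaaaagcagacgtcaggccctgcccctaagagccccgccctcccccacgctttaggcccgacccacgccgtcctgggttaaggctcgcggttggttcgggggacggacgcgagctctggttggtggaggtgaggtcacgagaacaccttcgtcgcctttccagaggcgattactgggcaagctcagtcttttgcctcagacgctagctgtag
The E-box was found upstream of 15 of the 71 nucleolar genes with an entry (21.1%), 5 of 78 spliceosome genes (6.41%), 1 of 19 mitochondrial genes (5.26%) and 0 of 16 monocyte genes, beside 6.64% of the 11002 tested genes with an entry and 5.59% of all promoters in the table. The ETS core was found in 31 nucleolar (43.7%), 20 spliceosome (25.6%) and 6 mitochondrial genes (31.6%), beside 10.6% and 7.27%. These are counts of letters in a window and describe the lists as such, whether or not a member differed. Of the 16 nucleolar genes higher at an unadjusted p under 0.05 that had an entry, 6 held the E-box and 6 the ETS core (37.5% each). The numbers were 4 and 7 of 27 such spliceosome genes (14.8% and 25.9%) and 0 and 2 of 4 such mitochondrial genes. These subsets are small and were picked by the same day 13 p-values. Whether a motif went with a difference was not tested.

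Genes that read out and translate the mitochondrial genome had the same direction. Of 22 measured, 17 were higher and 5 lower, 7 (31.8%) higher and 0 lower at an unadjusted p under 0.05, with a median of 0.25. Mtif2, the mitochondrial initiation factor, was at 5.14, 5.42, 5.19, 4.84 and 5.05 in filtered air. It was at 5.49, 5.53, 5.92, 5.81 and 5.66 with PEPs. The groups did not overlap (exact permutation p = 0.00794, the smallest that 5 against 5 allows), with a difference of 0.58 ± 0.18 (adjusted p = 0.365). Trmt10c, a subunit of mitochondrial RNase P, was higher by 0.81 ± 0.23, the elongation factor Gfm1 by 0.61 ± 0.18 and Tfam, which packages and transcribes mitochondrial DNA, by 0.61 ± 0.22. The transcription factors Tfb2m and Tfb1m and the recycling factor Gfm2 were higher by 0.52, 0.48 and 0.50. The count moved least with single arrays, between 5 and 9. Structural parts of the organelle moved less. Of 60 mitochondrial ribosomal proteins 40 were higher (median 0.10), 5 (8.33%) higher and 0 lower at an unadjusted p under 0.05. Of 75 respiratory chain genes 45 were higher (median 0.07), 3 (4%) higher and 0 lower at that limit. Over all genes 5.10% were higher and 3.25% lower.

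Most genes of protein synthesis and folding also had higher values, while 5.10% of all genes were higher and 3.25% lower at an unadjusted p under 0.05. Of 40 cytosolic ribosomal protein genes 34 were higher, with a median of 0.16 that ranged from 0.0614 without air replicate 4 to 0.271 without air replicate 2. At that limit 2 (5.00%), no larger a share than over all genes, were higher and 0 lower, Rpl15 (0.79 ± 0.32) and Rpl23 (0.31 ± 0.14). Ribosomal protein genes have many near-identical copies, and for Rpl30 the 5 probe sets gave differences from -0.22 to 1.12. Of 28 translation initiation factors 20 were higher (median 0.12, 3 higher and 1 lower at that limit). Of 65 chaperone genes 43 were higher, 9 (13.8%) of them at that limit and 0 lower. Hspa4, a nucleotide exchange factor of Hsp70, was at 7.10, 7.91, 7.51, 7.64 and 7.22 in filtered air, and with PEPs at 7.63 on replicate 1 and up to 8.10 on replicates 2 to 5. All exposed arrays but replicate 1 were above the highest air array, and the difference was 0.45 ± 0.11 (adjusted p = 0.268). The chaperonin subunits Cct4 (0.36 ± 0.12) and Cct8 (0.34 ± 0.12) and the endoplasmic reticulum reductase Dnajc10 (0.37 ± 0.13) followed. Of 35 proteasome genes 21 were higher (median 0.04), 5 at that limit and 0 lower, led by the base subunit Psmd1 (0.36 ± 0.11).

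**Figure D2:**
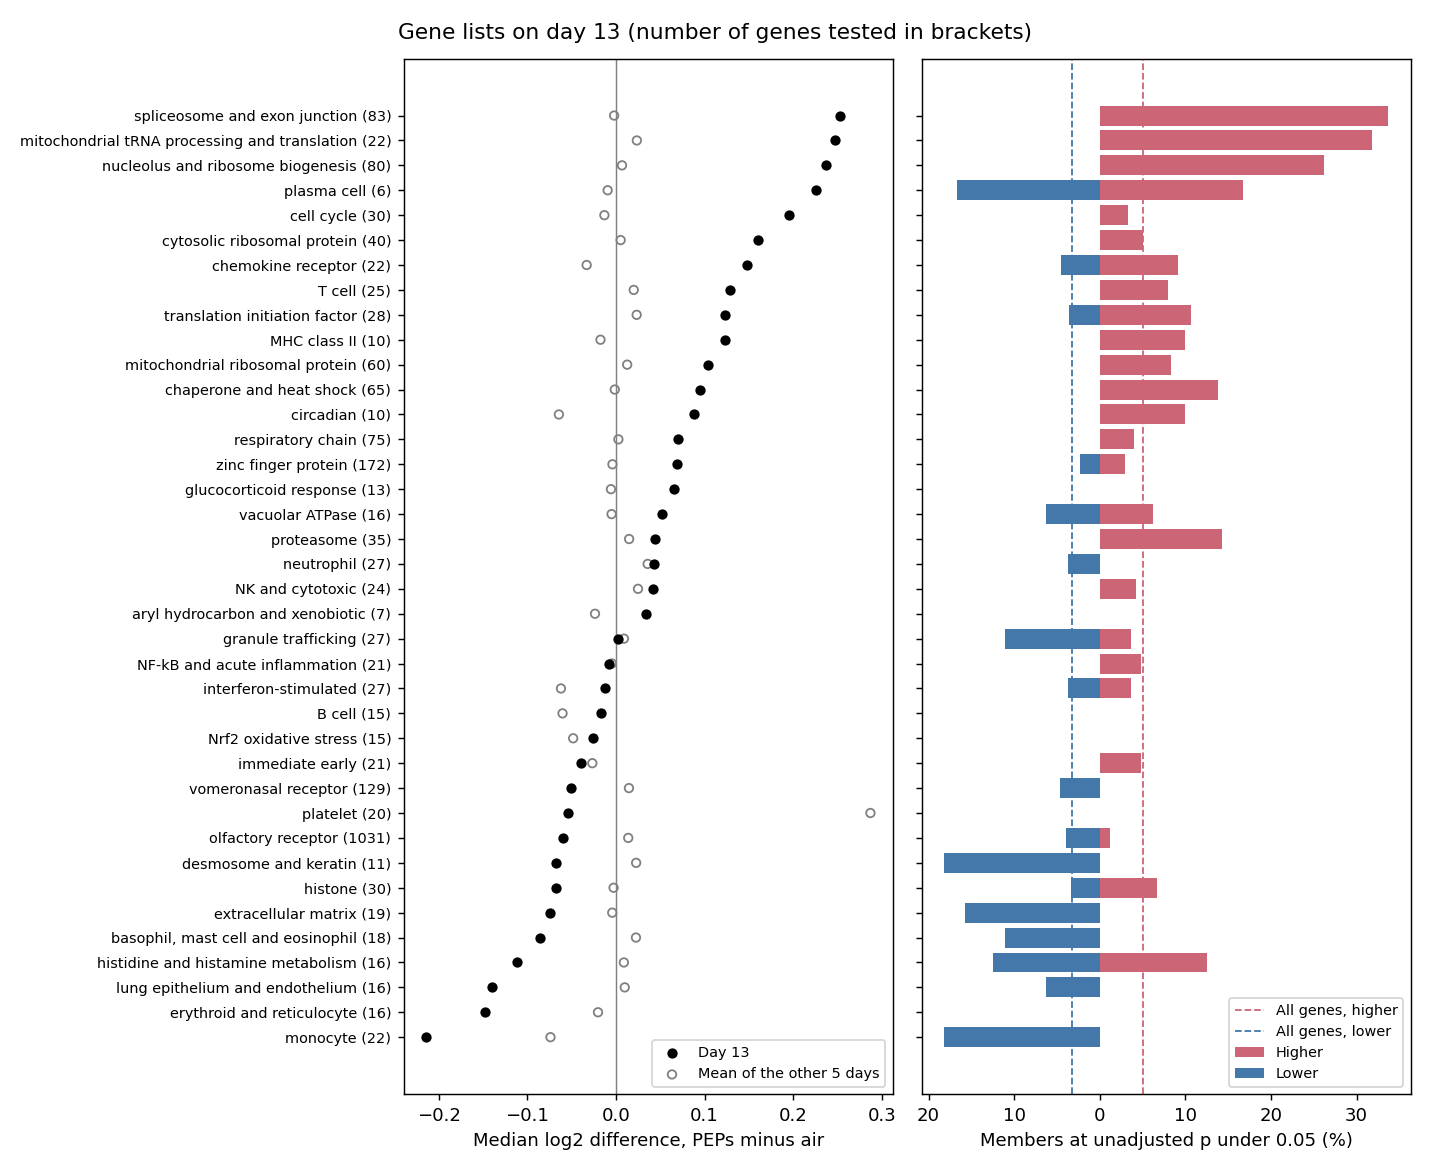
Gene lists on day 13, with the number of genes tested in brackets. The left panel plots the median log2 difference, PEPs minus air, on day 13 (filled) and as the mean of the other 5 days (open), and the right panel the percent of members with an unadjusted p under 0.05 that were higher (red) or lower (blue, to the left of 0) beside the same over all genes (dashed, 5.10% and 3.25%). Spliceosome, mitochondrial and nucleolar genes reach 33.7%, 31.8% and 26.2%, and monocyte genes have the lowest median.

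Part of this pattern was shared by all genes of middle intensity. Of the 4914 genes with a mean log2 intensity between 4 and 8, 67.0% were higher with PEPs, with a median of 0.09, and 10.7% were higher and 0.997% lower at an unadjusted p under 0.05. Of the 6836 genes at 3 or less, 37.3% were higher, with a median of -0.06, and 1.27% were higher and 4.87% lower. Within the range of 4 to 8 the share of higher genes at that limit was 32.8% of 64 spliceosome genes, 24.7% of 73 nucleolar, 41.2% of 17 mitochondrial and 23.1% of 39 chaperone genes. With the lower quartile of each array as a covariate the counts were 17 of 83, 13 of 80 and 7 of 22 for the first 3 lists, beside 3.72% of all genes.

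**Figure D3:**
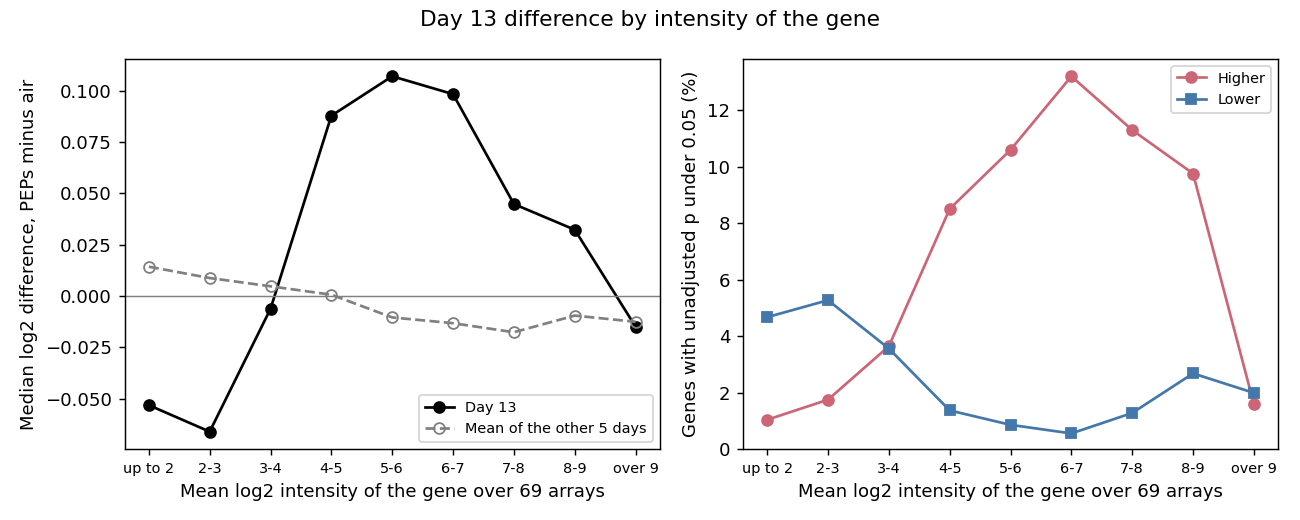
Day 13 difference of genes in bands of their mean log2 intensity over 69 arrays. The left panel gives the median log2 difference, PEPs minus air, on day 13 (black) and as the mean of the other 5 days (grey), and the right panel the percent of genes higher (red) or lower (blue) at an unadjusted p under 0.05. Bands between 4 and 8 have medians from 0.04 to 0.11 and the 2 lowest bands -0.05 and -0.07.

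Monocyte genes differed in the opposite direction. The paper's day 13 blood terms, from the same series, name Ccr2, so the share of this list is a description and not an independent test. Of 22 genes 19 were lower with PEPs and 3 higher, 4 (18.2%) lower and 0 higher at an unadjusted p under 0.05, beside 3.25% lower and 5.10% higher over all genes, with a median of -0.21. Ccr2, the chemokine receptor that draws classical monocytes out of the marrow and into tissue, was at 8.04, 9.26, 9.84, 9.19 and 10.17 in filtered air. It was at 8.88, 9.33, 9.05, 8.84 and 7.85 with PEPs. Air replicate 1 and PEPs replicate 5 were the lowest of the 10 arrays and the groups overlapped, and the weighted difference was -0.74 ± 0.27 (unadjusted p = 0.00873, exact permutation p on the unweighted values = 0.270). Cd14, the co-receptor for bacterial lipopolysaccharide, differed by -0.56 ± 0.24 and Csf1r, the receptor of macrophage colony-stimulating factor, by -0.42 ± 0.20. The marker Cx3cr1 had a fitted difference of only -0.28 ± 0.26 (unadjusted p = 0.291 in limma). Its unweighted means were 6.40 in filtered air and 6.41 with PEPs. Ace, a peptidase that also marks other cell types, separated the groups at -0.56 ± 0.17, with levels of 1.04 to 1.15 in the exposed rats that are below the lower quartile of those arrays. The mean level of the list was 4.979 on air replicate 1, from 5.693 to 6.108 on the other 4 air arrays and from 5.529 to 5.861 with PEPs. The unweighted difference of means was -0.11 with all arrays and -0.30 without air replicate 1, while the count of 4 fell to 1 (4.55%) when no weights were used or air replicate 5 was left out. That share was close to the background under the same settings, 3.49% and 3.05%. In whole blood, fewer cells of a type and less RNA per cell cannot be told apart.

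Other blood cell lists had 0 to 2 genes in either direction at an unadjusted p under 0.05, a limit at which 5.10% of all genes were higher and 3.25% lower. Of 25 T cell genes 20 were higher (median 0.13), 2 (8%) at an unadjusted p under 0.05 and 0 lower, namely Trat1, an adaptor of the T cell receptor (0.49 ± 0.18), and Il7r, the receptor of interleukin 7 (0.40 ± 0.19). The defining markers Cd3e, Cd3g, Cd4 and Cd8a had differences of 0.13, 0.24, -0.14 and 0.08. The mean level of the list was 6.581 to 7.570 in filtered air and 7.125 to 7.839 with PEPs, and without air replicate 1 the means of the groups differed by 0.01. The T cell list moved with the RNA processing lists across arrays in that air replicate 1 and PEPs replicate 1 were lowest in their groups for both, and the part of cell composition in those lists was not tested. Of 15 B cell genes 6 were higher (median -0.02), of 24 NK and cytotoxic genes 13 (median 0.04), of 27 neutrophil genes 17 (median 0.04) and of 20 platelet genes 8 (median -0.05). Of 16 erythroid genes 4 were higher (median -0.15), of 6 plasma cell genes 4 (median 0.23, or 0.0443 without air replicate 4) and of 10 MHC class II genes 6 (median 0.12). These lists held at most 1 gene in either direction at an unadjusted p under 0.05. Among 22 chemokine receptor genes, 15 were higher (median 0.15), with Ccr9, which homes lymphocytes to the gut (0.66 ± 0.28), and Ccr1l1 (0.84 ± 0.39) higher at that limit (9.09%) and Ccr2 lower (4.55%). Ccr9 and Ccr2 are also named in the paper's day 13 blood terms, so these shares are not an independent test.

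**Figure D4:**
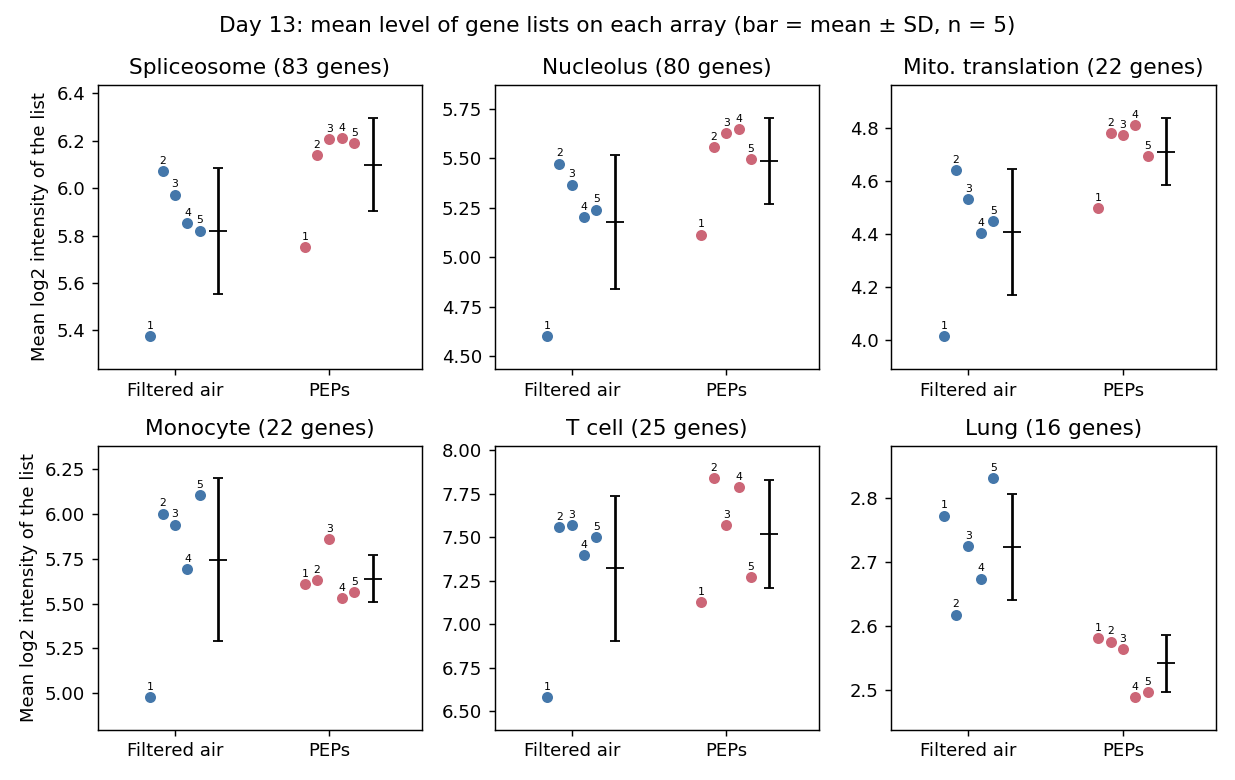
Mean log2 intensity of 6 gene lists on each array of day 13, filtered air in blue and PEPs in red, with replicate numbers and the mean ± SD (n = 5). Air_D13 replicate 1 is the lowest array in 5 of the lists, at 5.375 for the spliceosome and 4.979 for monocyte genes, and the lung list separates the groups, at 2.618 to 2.830 against 2.490 to 2.582.

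Most genes of the lung cell list were dim in both groups, and nearly all had lower values with PEPs. Napsa (7.93 and 7.82 in filtered air and PEPs) and Hopx (6.49 and 6.41), however, lay far above the lower quartile of the arrays. Of 16 measured, 15 were lower and 1 higher, with a median of -0.14. At an unadjusted p under 0.05, 1 (6.25%) was lower and 0 higher, beside 3.25% and 5.10% of all genes. It was Sftpc, surfactant protein C of alveolar type 2 cells (-0.39 ± 0.19). Sftpc was at 1.76, 2.33, 1.64, 2.05 and 2.08 in filtered air and 1.62, 1.52, 1.69, 1.74 and 1.38 with PEPs, so that only air replicate 3 fell inside the PEPs range. The mean level of the list was 2.772, 2.618, 2.725, 2.674 and 2.830 in filtered air and 2.582, 2.576, 2.564, 2.490 and 2.498 with PEPs. All exposed arrays lay under all air arrays, and the difference of means was -0.18, or -0.17 without air replicate 1. The defining markers Sftpb (1.43 and 1.32 in filtered air and PEPs) and Scgb1a1 (1.53 and 1.36) were near the lower quartile of the arrays, where a value can be background alone. Other genes of low level had medians of the same sign, with -0.06 for all genes at 3 or less. The median of 1031 olfactory receptor genes was -0.06, with 41 lower (3.98%) and 12 higher (1.16%) at that limit. For 129 vomeronasal receptor genes it was -0.05, with 6 lower (4.65%) and 0 higher. Of all genes at 3 or less, 4.87% were lower and 1.27% higher.

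Structural genes gave further low values. The paper's day 13 blood terms, from the same series, name Fn1, Sulf2 and Dsc3. The list shares here are therefore descriptions and not an independent test. Of 19 extracellular matrix genes 13 were lower (median -0.07), 3 (15.8%) at an unadjusted p under 0.05, beside 3.25% of all genes, and 0 higher. Sulf2, which trims sulphate from heparan chains, differed by -0.70 ± 0.25, Fn1, fibronectin, by -0.63 ± 0.24 and Eln, elastin, by -0.51 ± 0.23. Fn1 is well expressed, at 8.77, 9.48, 10.05, 8.99 and 9.73 in filtered air and 9.08, 9.18, 9.28, 8.73 and 8.34 with PEPs, and its groups overlapped. Of 11 desmosome and keratin genes 8 were lower (median -0.07), 2 (18.2%) at that limit, and 0 were higher at it. Dsc3, a desmosomal cadherin, was at 2.42, 1.91, 2.81, 1.88 and 2.27 in filtered air and 1.80, 1.57, 1.56, 1.62 and 1.71 with PEPs. Its groups did not overlap, and the difference was -0.64 ± 0.16 (adjusted p = 0.268).

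Histidine is the precursor of histamine, which basophils and mast cells store in their granules. Hdc, histidine decarboxylase, which forms histamine, was at 4.09, 6.10, 4.28, 4.74 and 4.23 in filtered air. It was at 3.99, 3.53, 3.79, 4.42 and 3.64 with PEPs. Air replicate 2 was more than 1 log2 unit above every other array, and the other 9 arrays overlapped between the groups. The difference was -0.90 ± 0.37 (unadjusted p = 0.0179, adjusted p = 0.538), and it was -0.51 at its smallest when each array was left out in turn. The paper lists Hdc among the up-regulated genes of day 13 blood, which is the opposite direction. The reason for that was not tested. Of 16 genes of the list 6 were higher and 10 lower (median -0.11), with Hdc and the receptor Hrh3 (-0.49 ± 0.24) lower and the aldehyde dehydrogenase Aldh9a1 (0.39 ± 0.18) and the receptor Hrh2 (0.29 ± 0.14) higher at an unadjusted p under 0.05. That was 12.5% of the list in each direction, beside 3.25% lower and 5.10% higher over all genes. Since the paper names Hdc for day 13 in the same series, the shares of this list and of the basophil list are not an independent test. Of 18 basophil, mast cell and eosinophil genes 8 were higher (median -0.09), with Hdc and Fcer1a (-0.33 ± 0.16), the high-affinity IgE receptor subunit, lower at that limit (11.1%) and 0 higher. The means of the defining markers Fcer1a, Ms4a2 and Cpa3 in the exposed rats, 1.30, 1.64 and 1.29, were close to or below the lower quartile of the arrays.

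Pathways commonly followed after inhaled particles had few genes at an unadjusted p under 0.05, a limit at which 5.10% of all genes were higher and 3.25% lower. Of 15 Nrf2 targets of the oxidative stress response 5 were higher (median -0.03) and 0 were at that limit in limma. Of 7 aryl hydrocarbon receptor genes 4 were higher (median 0.03), again with 0 at that limit. Of 21 genes of NF-kB and acute inflammation 9 were higher (median -0.01, 1 higher at that limit), of 27 interferon-stimulated genes 13 (median -0.01, 1 higher and 1 lower), of 21 immediate early genes 10 (median -0.04, 1 higher) and of 13 glucocorticoid-responsive genes 9 (median 0.07, 0 at that limit). Of 10 circadian genes 6 were higher (median 0.09, 1 higher at that limit), of 30 histone genes 11 (median -0.07, 2 higher and 1 lower), of 16 vacuolar ATPase genes 10 (median 0.05, 1 higher and 1 lower) and of 172 zinc finger genes 103 (median 0.07, 5 higher and 4 lower). The lower vacuolar ATPase gene, Atp6v0e1 (-0.30 ± 0.14, unadjusted p = 0.0297), is uncertain, since its second probe set was higher by 0.70 ± 0.25 (unadjusted p = 0.00800). Cell cycle genes had the largest median of this group of lists, 0.20, with 21 of 30 higher and 1 of them (3.33%) at that limit.

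Over all genes, the smallest p-values of those higher by at least 1.5-fold belonged, after Ncl, to Uprt, a uracil phosphoribosyltransferase homolog (0.85 ± 0.19), Mkks, a chaperonin-like protein of the Bardet-Biedl complex (0.80 ± 0.19), and Cntf, ciliary neurotrophic factor (0.72 ± 0.18). Tut1, which adds uridine to U6 snRNA (0.67 ± 0.17), Dph5, which modifies the histidine of elongation factor 2 to diphthamide (0.75 ± 0.19), and Anp32a, a nuclear histone-binding protein (0.65 ± 0.16), came next. Mkks was at 2.98, 3.87, 3.70, 2.73 and 3.32 in filtered air and 4.05, 4.02, 4.26, 4.44 and 4.21 with PEPs, without overlap. Cntf, Tut1 and the zinc finger genes Zfp68 (0.66 ± 0.17) and Zfp189 (0.90 ± 0.24) also separated the groups. Zhx1 (0.67 ± 0.18), the Mediator subunit Med7 (0.73 ± 0.19) and the F-box gene Fbxo39 (0.87 ± 0.23) completed the 12, whose adjusted p-values ran from 0.127 to 0.277.

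After Rab38, Doc2a and Dsc3, the genes lower by at least 1.5-fold with the smallest p-values were mostly dim. Ngfr, the low-affinity neurotrophin receptor, was at 3.84, 4.13, 4.26, 4.45 and 3.97 in filtered air and 3.51, 3.57, 3.52, 3.23 and 2.92 with PEPs. Its groups did not overlap, with a difference of -0.82 ± 0.24 (adjusted p = 0.320). Plxna4, a semaphorin co-receptor, differed by -0.74 ± 0.22, the nuclease Fan1 of crosslink repair by -0.66 ± 0.19 and Jph1, a junctophilin of muscle, by -0.64 ± 0.19. Hdlbpl1 (-0.67 ± 0.18), Lgi3 (-0.59 ± 0.17), Ggn (-0.60 ± 0.17) and Amh, anti-Müllerian hormone (-0.62 ± 0.18), had exposed means between 1.43 and 1.64. Tmem222 was the brightest of the 12, with means of 6.05 and 5.40 (-0.61 ± 0.19, adjusted p = 0.362).

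The same contrast on other days used other rats and other controls. Over days 1, 5, 9, 17 and 21 together 0 probe sets passed, with 1913 at an unadjusted p under 0.05 (5.60%) in limma, and on day 9 alone 2 passed (0.00585%). The spliceosome, nucleolar and mitochondrial lists had medians of 0.21, 0.19 and 0.18 on day 9, close to the 0.25, 0.24 and 0.25 of day 13, with 16 of 83, 13 of 80 and 6 of 22 genes higher at an unadjusted p under 0.05 (19.3%, 16.2% and 27.3%, beside 4.44% of all genes on that day). On day 1 the medians were -0.15, -0.19 and -0.15, and on day 21 they were -0.05, -0.01 and -0.02. The list medians of the 2 neighbouring days are descriptions, and their likeness was not tested. In group means, spliceosome genes on day 13 were at 5.818 ± 0.267 in filtered air, the lowest of the 6 air groups, and 6.100 ± 0.198 with PEPs. That rank rested on Air_D13 replicate 1, without which the air mean of day 13 was 5.929, above the 5.856 of day 9. The PEPs mean of day 17 was 6.101 and the filtered air mean of day 21 was 6.116. Nucleolar and mitochondrial genes, too, had day 21 air means (5.495 and 4.729) above those of PEP_D13 (5.488 and 4.710). The exposed level of day 13 was thus reached by controls of a later day. Ncl had its lowest air mean, 7.63, and its highest PEPs mean, 8.38, on day 13, and its exposure difference minus that of the other days was 0.67 (adjusted p = 0.350). The lung list had a median of -0.14 on day 13, and on the other days its median lay between -0.0019 and 0.023. Of the 12 groups without telemetry, Air_D13 had the highest mean of that list, 2.724, and PEP_D13 the lowest, 2.542, close to Air_D17 at 2.561. The extracellular matrix list was likewise highest in Air_D13, 3.117, and lowest in PEP_D13, 2.893, close to Air_D1 at 2.905. Monocyte genes changed sign from day to day, with medians of -0.14, -0.38, 0.15, -0.21, 0.19 and -0.16 on days 1, 5, 9, 13, 17 and 21.

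**Figure D5:**
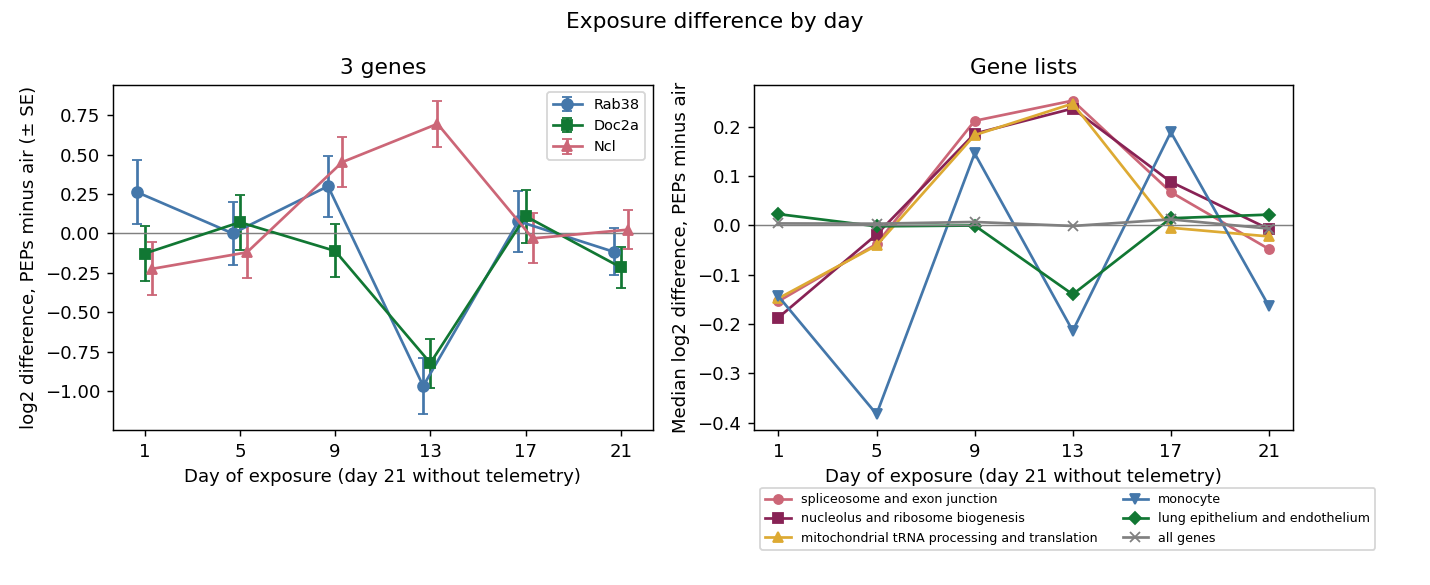
Exposure difference on each day, PEPs minus filtered air, in log2 units. The left panel gives the fitted difference ± SE of Rab38, Doc2a and Ncl, and the right panel the median over the genes of 5 lists and over all genes. Rab38 and Doc2a depart from 0 on day 13 at -0.97 and -0.82, and the spliceosome, nucleolar and mitochondrial lists are positive on days 9 and 13.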

How the data were processed

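Values were the log2 intensities that the authors deposited, made by RMA (background correction, quantile normalization, median polish) with oligo in R 3.4 per the submitters' processing notes. No count of molecules stands behind an array value, so the number of arrays limits the precision. Of 36685 probe sets, 14824 carried 1 gene symbol in the platform table, 829 several and 21032 none, and 14670 of the first kind were found in the RefSeq table. The 2509 probe sets with a variance under 0.05 were left out. A linear model of all 69 arrays (limma 3.58.1, R 4.3.3) gave each of the 14 groups its own mean, with gene-by-gene array weights, empirical Bayes moderation and Benjamini-Hochberg adjustment over 34176 probe sets. Fitted differences are weighted and can depart from the difference of the printed means. A gene was represented by its probe set of highest mean, and 74 of 207 genes with several sets had opposite signs. Values of 1401 probe sets equalled those of another set.

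Named genes were up to 12 rises and 12 falls, first those that passed and then the smallest unadjusted p among changes of at least 1.5-fold, skipping receptors of smell and taste, pseudogenes and provisional symbols (7 were skipped among the falls), up to 4 members of a list by p, and relatives of passing genes. Further list members are named as examples and were chosen after their values were seen. The comparison, the lists and the motifs were chosen with earlier results of these data known. Single values were tested by an exact permutation of 5 against 5 arrays, two-sided. The fit was checked on simulated data. Replicate numbers came from the titles and were not used to pair the arrays in the main fit. The labels and the methods name different RNA kits. Nothing says whether replicates were handled together, so p-values measure the spread between these arrays. Probe sets without a symbol were tested but not named.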

Additional observations from a re-analysis of the deposited data

Results flagged for a closer look

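In groups of 5, a sample was singled out where its gap to the nearest sample took up most of the range of the group, which chance alone does in about 1 in 20 groups. The rule was applied to 86 named genes and to the list means, in both groups, so several such values arise by chance alone. Many of the genes had been chosen by their day 13 p-values. Most of these values came from replicate 1 of either group. PEP_D13 replicate 1 stood apart for Ncl at 8.02, Uprt at 4.95, Rab38 at 2.46, Ace at 1.04, Trat1 at 6.77, Psma4 at 5.99, Hspa4 at 7.63, Aldh9a1 at 5.47 and Rab32 at 4.37, each the lowest of its group. The same array was the highest of its group for Jph1 at 2.28, Hrh2 at 3.03 and Sftpa1 at 1.74. It was also the lowest for the mean level of the nucleolar list at 5.11, the spliceosome list at 5.75 and the zinc finger list at 3.71. Air_D13 replicate 1 was the lowest for Trat1 at 5.38, Pes1 at 3.91 and Atp6v1b2 at 6.11, and for the mean level of the T cell list at 6.58, the MHC class II list at 6.28 and the translation initiation factor list at 5.50. The remaining values were Atp6v0e1 on PEP_D13 replicate 5, at 9.40, and Pkp2 on Air_D13 replicate 5, at 2.75.

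Rab38 was also singled out because its exposure difference was not the same on day 13 as on the other days, by -1.07 with an adjusted p of 0.0398 in limma.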

How the results depend on the processing

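The count of 2 probe sets that passed was 1 without array weights, without the telemetry groups, among probe sets above the median intensity and after cyclic loess. It was 0 with only the arrays of day 13, with the replicate block and without the day 13 array of weight under 0.5, and 0 to 5 when each array was left out, the 5 arising without PEP_D13 replicate 1. Same-number correlations between the groups ran from -0.0456 to 0.249, with 2 of 5 arrays closest to their own number. The highest was that of replicate 1, whose correlations with other numbers reached at most 0.0373. Whether arrays of the same number were handled together was not tested. With the replicate block in limma the adjusted p of Rab38 and Doc2a was 0.0598. The count of 1 for day 13 against the other days was 0 with trend and robust moderation, the replicate block and the array of weight under 0.5 left out, and 0 to 1 over single arrays left out. Genes higher by 1.5-fold, 105, numbered 177 without weights, 62 with the lower quartile as covariate and 83 to 219 over arrays left out. Those lower, 88, numbered 52 above the median intensity and 103 to 166 over arrays left out. At 2-fold there were 5 higher and 3 lower. Of the list counts, spliceosome (28) was 14 (16.9%) with only the arrays of day 13, 17 (20.5%) with the covariate and 17 to 37 over arrays left out. Nucleolus (21) was 13 (16.2%), 13 (16.2%) and 14 to 30. Monocyte (4) was 1 (4.55%) without weights, 8 (36.4%) with the covariate and 1 to 5. The mitochondrial count of 7 stayed between 5 and 9. Of all genes, 3.39% were higher with only the arrays of day 13, 3.72% with the covariate and 3.71% to 6.93% over arrays left out. The share of lower genes was 3.49% without weights, 3.1% with the covariate and 2.52% to 3.95% over arrays left out. Medians of several smaller lists also shifted by more than their spread. Among probe sets above the median intensity the median was 0.111 for basophil, mast cell and eosinophil genes, 0.0458 for histidine and histamine metabolism, -0.355 for extracellular matrix and -0.275 for vomeronasal receptors. The desmosome and keratin median was -0.234 without weights and -0.206 to -0.0505 over arrays left out, the aryl hydrocarbon median lay between -0.0645 and 0.0549 over arrays left out, and the basophil median between -0.0815 and 0.0263. Rab32 turned to 0.0035 without Air_D13 replicate 5, and lay between that and -0.31 over arrays left out. The cause of these shifts was not tested. For dim genes, near the lower quartile of an array, background limits what a difference can show.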
